A study of Mus musculus with 4 samples.

Results

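The Hippo-YAP genes studied here were 10 genes chosen by name: the transcriptional co-activators Yap1 and Wwtr1, their DNA-binding partner Tead1, the kinases Lats1 and Lats2, the junctional scaffolds Amotl2 and Ajuba, and the target genes Ccn1 (formerly Cyr61), Ccn2 (formerly Ctgf) and Ankrd1. All 10 were found among 17305 genes named on the array, through 15 of its 41174 probes, and 9 of them were tested among 14995 features. The RNA came from intact ureteric buds of mouse kidney, the epithelial outgrowths that branch into the collecting system. Buds in matrix gel were kept for 6 h either with the peptide hormone angiotensin II (AngII, 1e-05 M) or in media alone, and the comparison asks which transcripts differ between these treatments. Both groups had the same DMEM/F12 culture with 10% FBS and the growth factors GDNF and HGF, each at 100 ng/ml, so the controls were themselves growth factor-treated. The sources used here give no strain, no age and no number of buds pooled. AngII RNA and media RNA formed 2 numbered pairs, and each pair went onto 2 arrays of opposite dye (Cy5 or Cy3), 4 arrays in all.

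In the Hippo pathway a kinase relay ends in LATS1 and LATS2, which phosphorylate YAP (encoded by Yap1) and TAZ (encoded by Wwtr1) and so keep them out of the nucleus. Unphosphorylated YAP and TAZ bind TEAD proteins and switch on targets such as Ccn1, Ccn2 and Ankrd1, and also Amotl2 and Lats2, whose products feed back to restrain them. The pathway reads cell contact, tension and G protein-coupled receptor signals.

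TEAD proteins bind DNA at a core written GGAATG, so the 250 bases upstream of each start of transcription were searched for these letters on both strands. RefSeq promoters (GRCm38.p6) were matched for 8 of the 10 genes, all except Tead1 and Ccn2. The core was present upstream of 6 of the 8, namely Yap1, Wwtr1, Ankrd1, Amotl2, Ccn1 and Ajuba, and of 14.4% of all 27025 genes with a promoter (12.6% of 32851 promoters). The stretches around these matches are shown because they are the DNA through which TEAD could read these genes. Each runs 5′ to 3′ on the strand of its gene, with the core in capitals, as CATTCC where it lies on the opposite strand.
Yap1 (chr9:8004707-8004762, minus strand): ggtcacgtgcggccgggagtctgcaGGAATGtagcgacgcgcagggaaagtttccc
Wwtr1 (chr3:57576016-57576071, minus strand): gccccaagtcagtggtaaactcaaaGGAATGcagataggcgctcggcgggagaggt
Amotl2 (chr9:102717727-102717756, plus strand): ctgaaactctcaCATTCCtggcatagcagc
Ajuba (chr14:54577795-54577872, minus strand): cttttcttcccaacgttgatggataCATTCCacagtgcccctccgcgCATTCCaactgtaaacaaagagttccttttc
Ccn1 (chr3:145650058-145650113, minus strand): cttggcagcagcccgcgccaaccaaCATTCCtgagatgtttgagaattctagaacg
Ankrd1 (chr19:36119937-36120079, minus strand): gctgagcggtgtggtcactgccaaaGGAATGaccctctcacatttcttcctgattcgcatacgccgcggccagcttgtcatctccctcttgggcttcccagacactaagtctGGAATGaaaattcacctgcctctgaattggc

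Ankrd1 and Ajuba held 2 cores each and the other 4 held 1. The first base of the core lay 141 bases upstream in Yap1, 136 in Wwtr1, 65 in Amotl2 and 103 in Ccn1. The windows of Lats1 and Lats2 held none. Neither the AP-1 motif TGANTCA, present in 6.75% of all promoters, nor the CArG box of serum response factor, present in 1.47%, occurred in the windows of these 8 genes. Either can share its end bases with GGAATG. A match of letters is a description of the window and not a site shown to be bound.

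**Figure D1:**
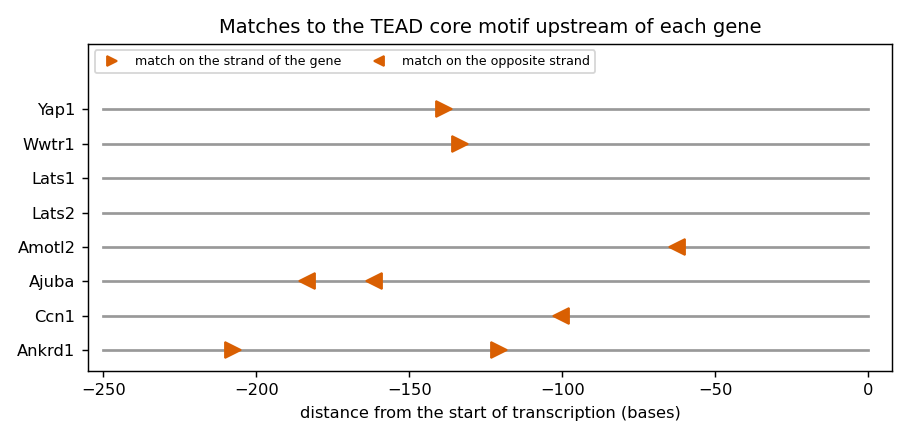
Position of each GGAATG match in the 250 bases upstream of the start of transcription of the 8 genes with a promoter entry (first start listed for Wwtr1 and Lats2; the horizontal axis is distance in bases). Arrowheads pointing right are on the strand of the gene and those pointing left on the opposite strand; Ankrd1 and Ajuba have 2 matches, Lats1 and Lats2 none.

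Values below are log2 ratios of AngII over media within an array, with the dye-swapped arrays turned, or normalised log2 intensities of a channel, called levels. Between 19028 and 21922 probes were well above background per channel. The ratios of the 2 numbered pairs did not differ beyond array noise: their half-difference had an SD of 0.04 over features, 1.02 times that of a contrast holding array noise alone. In limma 0 features differed between them at an adjusted p under 0.05, and 771 at an unadjusted p under 0.05, against 750 by chance. The labels call the pairs biological replicates, but they were counted here, with caution, as 1 independent pair of RNAs. Finding no difference on 4 arrays cannot show that the RNAs were the same. Every p-value is therefore read as measuring only spread between hybridisations. The main limma fit used ratios averaged over the dye swap. Its SEs, intervals and p-values therefore leave out the spread between dye orientations. The dyes mattered more, with an SD of 0.16 for the half-difference between dye orientations, so the ratio on each array is given. At an adjusted p under 0.05, 77.3% of all tested features passed, 38.1% lower and 39.1% higher under AngII.

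Of the 9 Hippo-YAP genes tested, 7 were lower under AngII in limma and none was higher. With 38.1% of all features lower, the count alone says little, and the sizes are described instead. Wwtr1, Ajuba and Ccn1 were lower by at least 1.5-fold, a size reached downward by 5.40% of all features and upward by 5.50%. Ratios were below 0 on all 4 arrays for 6 of the 9, against 28.1% of all features, and 59.1% of all features kept one sign on all 4. Lats2 and Amotl2 fell by a smaller amount, Lats1 and Ccn2 by less again, and Yap1 and Ankrd1 did not pass. The median of the 9 genes was -0.44, against 0.00 for all features. The Tead1 probe was not well above background in either channel of any array and gives no ratio. In RNA of whole buds, fewer cells of a type and less transcript per cell cannot be told apart.

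**Figure D2:**
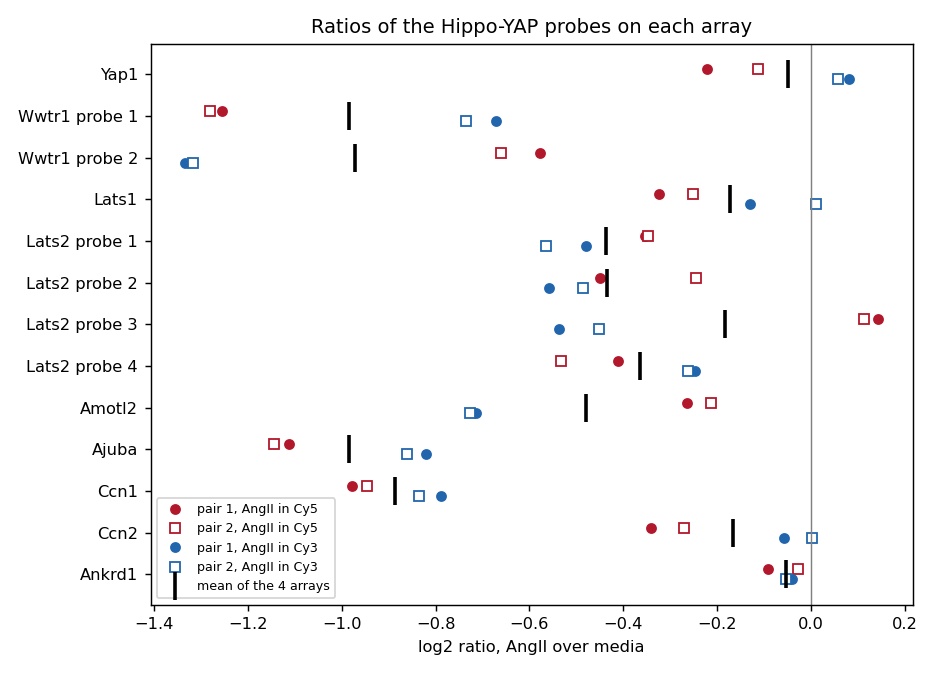
Log2 ratio of AngII over media (horizontal axis) for each of the 13 probes that passed the filter on dim probes, numbered within a gene from the brightest. Each point is 1 array, red with AngII in Cy5 and blue with AngII in Cy3, circles for pair 1 and squares for pair 2, and the black bar is the mean; all points of Wwtr1, Ajuba, Ccn1 and Amotl2 lie below 0.

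Markers of other cells were read beside these genes. Among all features 38.1% were lower and 39.1% higher under AngII. All 7 tested red cell markers were higher under AngII, at log2 ratios from 0.43 to 2.78, and their summed log2 level was 14.97 to 15.28 with AngII against 12.54 to 12.79 in media. Of 10 stromal markers 5 rose and 3 fell (summed level 15.42 to 15.59 against 15.08 to 15.31). The summed level of 6 leukocyte markers was 9.41 to 9.49 against 9.19 to 9.31, with 3 higher and 3 lower. All 6 were dim, with mean log2 intensities from 6.44 to 7.31. The Tead1 probe, not well above background, had 5.92. Of 17 tested ureteric bud markers 6 rose and 8 fell. Their summed levels, 17.70 to 17.87 against 17.85 to 18.24, overlapped. The sum mainly reads the keratin genes Krt18 and Krt8 (mean log2 intensity 17.02 and 16.63), as the next brightest marker, Calb1, had 12.09. Krt8 had ratios of -0.04 and -0.35 with AngII in Cy5 and -0.95 and -1.01 with AngII in Cy3. Summed levels also overlapped for 8 nephron progenitor markers (12.48 to 12.71 against 12.53 to 12.71), of which 2 rose and 5 fell. They overlapped too for 7 endothelial markers (11.21 to 11.33 against 11.18 to 11.35), of which 2 rose and 4 fell. The bud markers Wnt11, Gata3 and Calb1 were well above background and Ret was not. Neither were Tbx18 of stroma, Tek of endothelium and Lyz2 of leukocytes. The part of these other cells in the Hippo-YAP ratios was not tested.

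The co-activators parted from each other. Wwtr1, which encodes TAZ, had levels of 10.15 and 9.88 with AngII in Cy5 and 10.75 and 10.67 with AngII in Cy3, against 11.40, 11.16, 11.42 and 11.41 in media on the same arrays. All AngII levels were below all media levels, which held for 15.1% of all features. The ratios were -1.26 and -1.28 on the arrays with AngII in Cy5 and -0.67 and -0.73 on those with AngII in Cy3. Wwtr1 fell by 0.99 on average (SE 0.03, 95% interval -1.06 to -0.92; limma adjusted p = 4.93e-20), so that media held 1.98 times the AngII level, and it ranked 157 from the lowest of 14995 features. A second Wwtr1 probe had the opposite order of dyes, -0.58 and -0.66 with AngII in Cy5 and -1.33 and -1.32 with AngII in Cy3, yet a mean of -0.97. The probes thus gave nearly the same mean with dye effects of opposite sign.

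Yap1, the close relative of Wwtr1, had AngII levels of 8.65, 8.90, 9.0028 and 8.93 against media levels of 8.87, 9.01, 8.92 and 8.87, and the groups overlapped. Its ratios were -0.22 and -0.11 with AngII in Cy5 and 0.08 and 0.06 with AngII in Cy3. The mean of -0.05 (SE 0.03, 95% interval -0.12 to 0.02) did not pass (limma adjusted p = 0.190). The interval reaches down to a decrease of 0.12 log2 units for this pair of RNAs, after averaging over the dye swap. It leaves out the spread between dyes, and single arrays ran from -0.22 to 0.08. The interval does not cover the choice of processing either, as Agilent's processed signals gave -0.13 (limma adjusted p = 0.247). No array ratio of Yap1 overlapped those of either Wwtr1 probe. The Yap1 sign followed the dye, and on the Cy5 orientation by itself Yap1 passed at -0.17 (limma adjusted p = 0.00408).

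**Figure D3:**
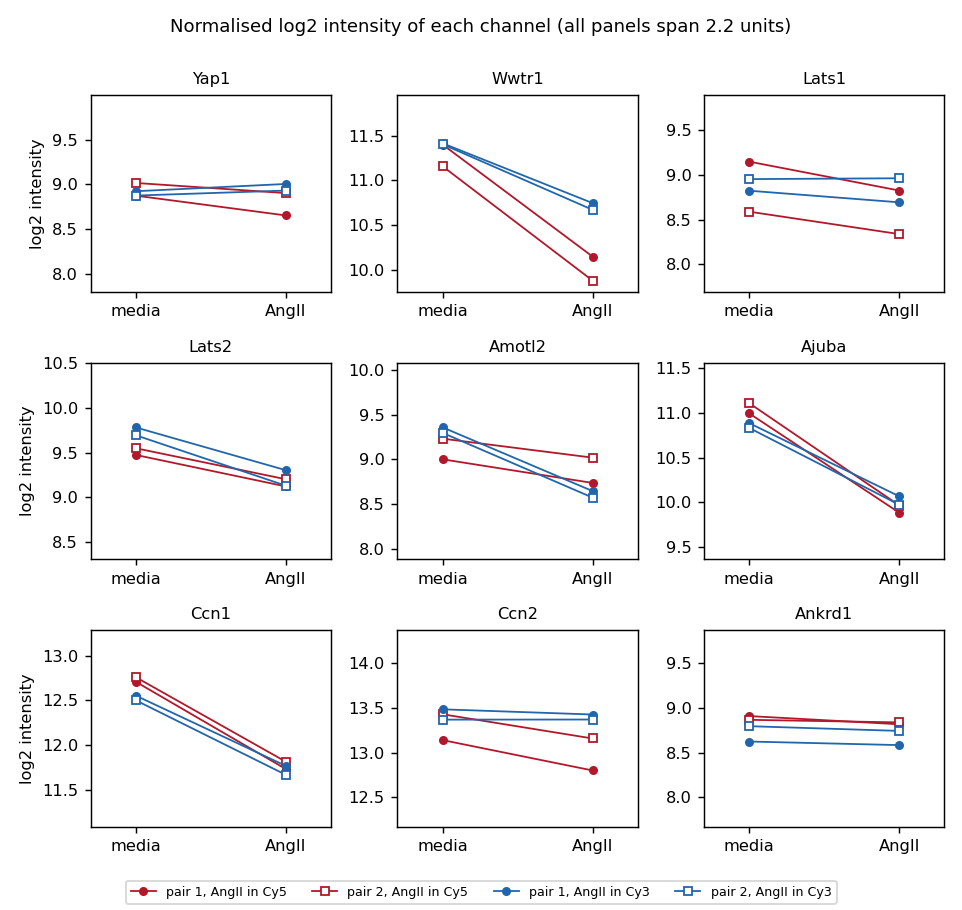
Normalised log2 intensity (vertical axis) of the media and AngII channels for the brightest probe of each tested gene, 1 line per array, red with AngII in Cy5 and blue with AngII in Cy3; every panel spans the same number of log2 units. The lines of Wwtr1, Ajuba and Ccn1 all fall, from 11.16 to 11.42 in media down to 9.88 to 10.75 for Wwtr1, and those of Yap1 and Ankrd1 are nearly flat.

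LATS1 and LATS2 are the kinases that inactivate YAP and TAZ, and LATS2 is also a YAP target. At its brightest probe Lats2 had AngII levels of 9.12, 9.20, 9.30 and 9.13 against media levels of 9.48, 9.55, 9.78 and 9.70, with no overlap. The ratios were -0.35, -0.35, -0.48 and -0.57, in the order of arrays used above, and Lats2 fell by 0.44 on average (SE 0.03; limma adjusted p = 3.56e-12). A further pair of probes for the same transcript record had means of -0.43 and -0.36, each lower on all 4 arrays. The remaining probe, designed to another Lats2 transcript record, had 0.14 and 0.11 with AngII in Cy5 and -0.54 and -0.45 with AngII in Cy3, a mean of -0.18 whose sign followed the dye. Lats1 had ratios of -0.32, -0.25, -0.13 and 0.01, and its levels overlapped (8.34 to 8.96 with AngII, 8.59 to 9.15 in media). Its mean of -0.17 passed in limma (SE 0.04; adjusted p = 7.38e-05), but not with the replicate block on the 4 arrays (adjusted p = 0.164) or with AngII in Cy3 alone (-0.06; adjusted p = 0.269). A second Lats1 probe was not well above background.

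AJUBA and AMOTL2 work at cell junctions: AJUBA is a LIM protein that holds LATS kinases inactive under tension, and AMOTL2 is an angiomotin that binds YAP and TAZ and retains them at junctions. Ajuba had AngII levels of 9.88, 9.96, 10.06 and 9.97 against media levels of 10.99, 11.11, 10.89 and 10.83. The groups lay far apart, and the ratios were -1.11, -1.15, -0.82 and -0.86. Ajuba fell by 0.98 (SE 0.03, 95% interval -1.05 to -0.91; limma adjusted p = 4.72e-20), beside Wwtr1 in the order of all features. Amotl2 had ratios of -0.26 and -0.21 with AngII in Cy5 and -0.71 and -0.73 with AngII in Cy3. It was lower on every array, but its levels overlapped across arrays, from 8.57 to 9.02 with AngII and from 9.0002 to 9.36 in media. Amotl2 fell by 0.48 on average (SE 0.03; limma adjusted p = 4.17e-13), and the size depended on the dye by more than 1.5 times, -0.24 over the arrays with AngII in Cy5 and -0.72 over those with AngII in Cy3.

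The 3 targets most often used to read YAP activity gave different results. Ccn1, a secreted matricellular protein gene that is also an immediate early gene, had AngII levels of 11.73, 11.81, 11.77 and 11.67 against media levels of 12.71, 12.76, 12.55 and 12.50. There was no overlap, and the ratios were -0.98, -0.95, -0.79 and -0.83, with little difference between the dyes. Ccn1 fell by 0.89 (SE 0.03, 95% interval -0.96 to -0.82; limma adjusted p = 4.39e-19), and media held 1.85 times the AngII level. Ccn2, its relative and a profibrotic growth factor gene, had ratios of -0.34, -0.27, -0.06 and 0.00, on levels that overlapped (12.80 to 13.43 with AngII, 13.14 to 13.48 in media). Its mean of -0.17 passed in limma (SE 0.03; adjusted p = 8.65e-05). The call was lost with the replicate block (adjusted p = 0.210), with Agilent's processed signals (-0.18; adjusted p = 0.0941) and with AngII in Cy3 alone (-0.03; adjusted p = 0.540). No array ratio of Ccn2 overlapped those of Ccn1. Ankrd1, which encodes a stress-induced ankyrin repeat cofactor, had ratios of -0.09, -0.03, -0.04 and -0.05, and its mean of -0.05 (SE 0.03, 95% interval -0.12 to 0.02) did not pass (limma adjusted p = 0.154). All 4 ratios were below 0, and the levels overlapped (8.58 to 8.84 with AngII, 8.62 to 8.91 in media).

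In order of mean ratio, Wwtr1, Ajuba and Ccn1 were lowest and their array ratios overlapped one another, so their order is not settled. Amotl2 and Lats2 came next, at -0.48 and -0.44, also with overlapping arrays; the wide range of Amotl2 also met those of Wwtr1, Lats1, Ccn2 and Yap1. Lats1 and Ccn2 lay at -0.17 each and Ankrd1 and Yap1 at -0.05 each, and the array ratios of these 4 overlapped. With the replicate block fitted over the 4 arrays, where 31.0% of all features passed and 14.7% were lower, 5 of the 9 genes passed as lower: Ccn1 (adjusted p = 0.00405), Ajuba (0.00494), Wwtr1 (0.0115), Lats2 (0.0155) and Amotl2 (0.0474). In the authors' deposited table the log2 ratios were -1.02 for Wwtr1, -1.02 for Ajuba, -0.91 for Ccn1, -0.51 for Amotl2 and -0.05 for Yap1, and the same 7 genes carry a call of lower.

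**Figure D4:**
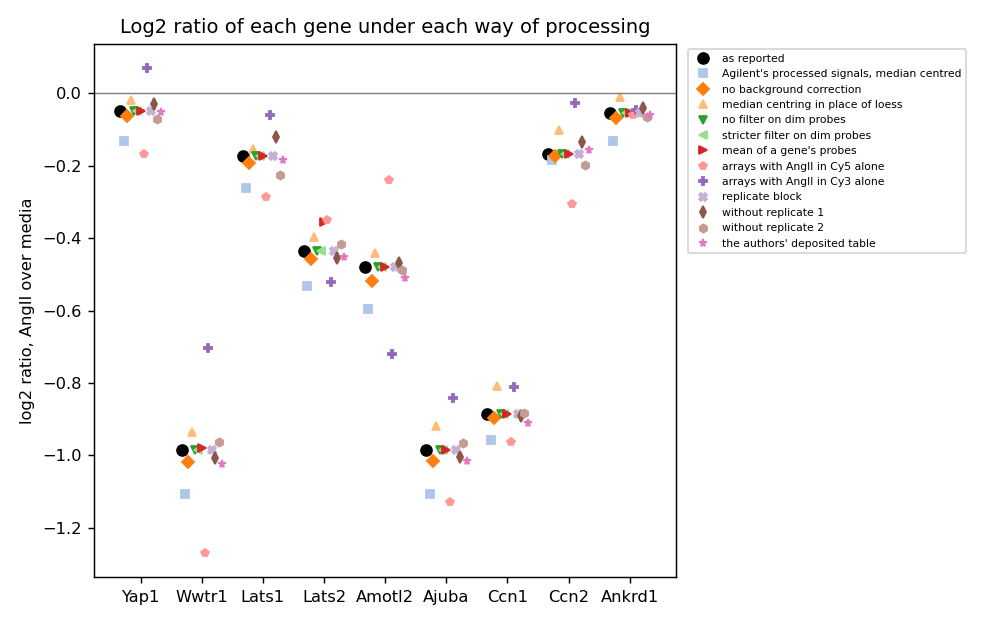
Log2 ratio of AngII over media (vertical axis) of each tested gene under the reported processing (black circles) and 12 alternatives (coloured marks), including each dye orientation alone. Wwtr1, Ajuba and Ccn1 stay no higher than -0.70 under all of them, and Yap1 reaches 0.07 with AngII in Cy3 alone.

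The genes nearest to the lowest member, Wwtr1, in Euclidean distance over the 4 array ratios were the desmosomal plakophilin gene Pkp3 (distance 0.149, mean -0.99), the chromatin remodelling gene Baz1a (0.174, mean -0.97, other probes -0.45 and -0.71) and the amino acid transporter gene Slc38a2 (0.175, mean -0.95, another probe -0.84). Among those nearest to the highest member, Yap1, were Aldh7a1 (0.0441) and Prr11 (0.0492), neither of which passed in limma. These distances cover 4 arrays of 1 comparison and take in dye effects. Pkp3, Baz1a and Slc38a2 shared the dye order of the brightest Wwtr1 probe. Their half-differences between dye orientations were -0.29, -0.35 and -0.35, against -0.28 for that probe. The second Wwtr1 probe, with the opposite dye order, was not used for the distances.

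Further genes of the pathway were taken from lists. The list of core kinases and activators holds the kinases upstream of LATS with their scaffolds and receptors. Of 24 genes 16 were named on the array and tested; 8 fell, 5 rose and 3 missed the threshold, near the 38.1% lower and 39.1% higher among all features. The median was -0.08. Taok1, a kinase that activates the Hippo kinases, fell by 0.64, with 0.06 at a dimmer probe. Frmd6 fell by 0.53 (other probes -0.28 and -0.22), the scaffold gene Sav1 by 0.46 (another probe -0.15), Map4k2 by 0.43 (-0.73 with processed signals) and the protocadherin gene Fat4 by 0.23. Fat4 lost its call with AngII in Cy5 alone (-0.08; adjusted p = 0.198) and under the replicate block (adjusted p = 0.127). Map4k1 had 0.26, with 0.56 and 0.58 when AngII was in Cy5 and -0.03 and -0.08 when it was in Cy3. With the replicate block, where 14.7% of all features were lower, 4 of these genes were lower and 0 higher, and Map4k1 did not pass (adjusted p = 0.270).

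The listed genes whose products hold the kinases back encode LIM proteins related to AJUBA, the STRIPAK phosphatase complex and MARK4. Of 11 tested genes 7 were lower and 2 higher, with a median of -0.22, beside 38.1% lower and 39.1% higher among all features. Wtip fell by 0.45 and Limd1 by 0.36, both LIM proteins of the Ajuba family, though another Limd1 probe had 0.16. The phosphatase subunit genes Ppp2r1a and Ppp2ca fell by 0.42 and 0.22, Strn4 by 0.36 (another probe -0.56) and Mark4 by 0.23. Strn4 had -0.72 and -0.71 with AngII in Cy5 against -0.0033 and 0.0122 with AngII in Cy3. With processed signals Mark4 had -0.85. With the replicate block only 2 genes of this list were lower, against 14.7% of all features, and 0 higher. The calls of Ppp2r1a (adjusted p = 0.0913), Ppp2ca (0.114), Strn4 (0.193) and Mark4 (0.0698) were lost there, and that of Ppp2ca also with AngII in Cy5 alone (-0.09; adjusted p = 0.122).

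The list of TEAD and YAP partners and of factors of YAP turnover had 14 of 21 tested genes lower and 3 higher, with a median of -0.20, and 6 were lower by at least 1.5-fold. Among all features 38.1% were lower, 39.1% higher and 5.40% lower by at least 1.5-fold. Tead4 fell by 1.03 (-1.13 to -0.91 over the arrays) and Tead2 by 0.96 (-1.23, -1.26, -0.79 and -0.57), with -0.34 at another Tead2 probe. Both encode TEAD factors, and Tead3 had -0.35. The 14-3-3 gene Ywhah fell by 0.92, and 14-3-3 proteins hold phosphorylated YAP in the cytoplasm. The other 14-3-3 genes tested went both ways. Ywhae had 0.15, Ywhaq 0.13 and Ywhaz 0.02, and Ywhab had -0.19, Sfn -0.33 and Ywhag -0.39. Csnk1e, a casein kinase gene, fell by 0.66, and the kinase gene Src by 0.63 (another probe -0.20). Ptpn14, a phosphatase that binds YAP and is also a YAP target, fell by 0.64, but its dimmer probes had -0.06 and 0.04. With the replicate block 9 of these genes were lower, against 14.7% of all features, and 0 higher.

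**Figure D5:**
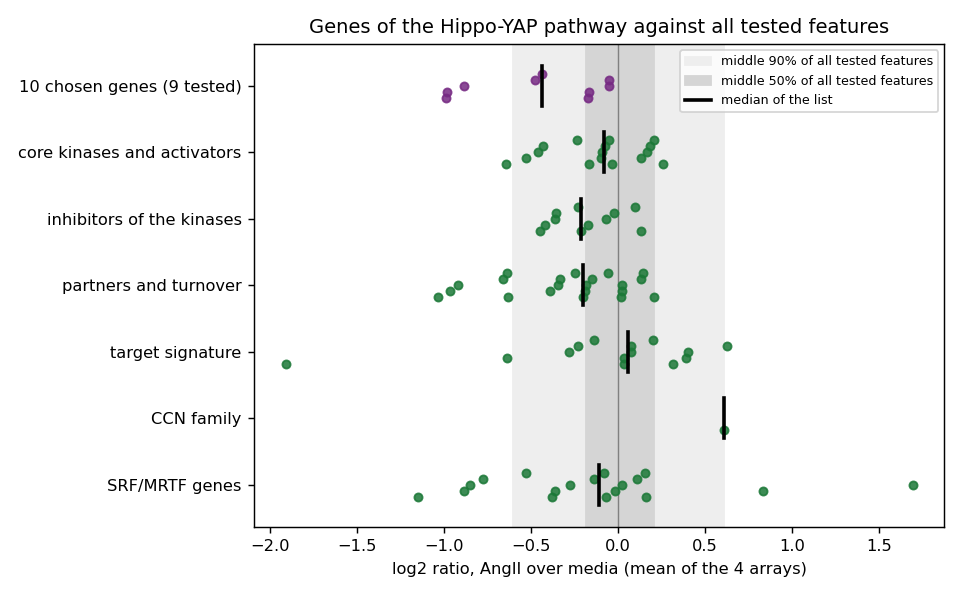
Mean log2 ratio of AngII over media (horizontal axis) for the 9 tested Hippo-YAP genes and for each pathway list without those genes, 1 point per gene, with the median of each list as a black bar and the middle 50% and 90% of all tested features shaded. The median is -0.44 for the 9 genes, -0.20 for partners and turnover and 0.06 for the target signature.

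The target signature, a list of 22 YAP and TAZ targets drawn from other tissues, shares Amotl2, Lats2, Ccn1, Ccn2 and Ankrd1 with the genes above. Of 19 tested targets 9 fell and 6 rose. Without the shared genes 5 of 14 fell and 6 rose, with a median of 0.06, close to the 38.1% and 39.1% of all features. With the replicate block 3 of these 14 were lower and 4 higher, where 14.7% of all features were lower and 31.0% passed in either direction. Fjx1, a Golgi kinase gene of the Fat-Dachsous system, fell by 1.91 (-1.95 to -1.86 over the arrays). Ccdc80, a matrix protein gene, rose by 0.63, Foxf2, a mesenchymal transcription factor gene, by 0.40, the membrane repair gene Myof by 0.39 (other probes 0.55 and 0.16) and the kinase gene Nuak2 by 0.32. The Foxf2 probe was dim (mean log2 intensity 6.50) and did not pass the stricter filter, and its ratio was 1.33 with processed signals. The Myof probe at 0.16 had -0.11 and -0.21 with AngII in Cy5 and 0.44 and 0.52 with AngII in Cy3. Of the CCN family, Ccn4 rose by 0.61 (0.38 to 0.88 over the arrays), opposite to Ccn1, and Ccn3, Ccn5 and Ccn6 did not pass the filter on dim probes.

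Ccn1, Ccn2 and Ankrd1 are also regulated by serum response factor (SRF) and its actin-sensing cofactors. Of 18 tested SRF-linked genes 9 fell and 5 rose, with a median of -0.11, beside 38.1% lower and 39.1% higher among all features. The cytoplasmic actin gene Actg1 fell by 1.15 (another probe -0.68), the calponin genes Cnn1 and Cnn2 by 0.89 and 0.78, and the adhesion gene Vcl, which encodes vinculin, by 0.85 (another probe -0.63). Acta2, smooth muscle actin, rose by 1.69 (other probes 1.03 and 0.65), and the tropomyosin gene Tpm2 by 0.84 (another probe 0.45). With the replicate block 7 of these genes were lower and 2 higher, where 14.7% of all features were lower and 31.0% passed in either direction.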

How the data were processed

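The deposited intensity files hold, per the file headers, the median pixel intensity of every spot and of its local background in both dyes, and a processed intensity from which Agilent's Feature Extraction (10.5.1.1) had removed background and dye bias. Per the file headers the software also wrote a log10 ratio of processed Cy5 over Cy3, deposited as made and used only to check direction, and flags for outlier, saturated and above-background spots. The authors' deposited table holds a mean log2 intensity, a log2 ratio and an adjusted p-value per spot. It also has the authors' call, a score of -1, 0 or 1. The submitters' processing notes name limma, with no version or design. For labelling, 300 ng of total RNA was used, per the labels' protocols.

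Here limma 3.58.1 in R 4.3.3 was used: normexp background correction of median signals (offset 50), then loess per array (control spots weighted 0; spots flagged as outliers dropped), the mean over spots of a probe, and a turned sign where AngII was in Cy3. Levels are channel values after Aquantile scaling. Of 41174 probes 19393 were kept, those that stood well above background for one of the RNAs on all 4 arrays, and the brightest probe stood for a gene. No member spot was saturated. Dye-swapped arrays were averaged within a replicate number, and lmFit and eBayes tested the 2 means against 0, with Benjamini-Hochberg adjustment over 14995 features. The pairing by replicate number lies within each array, which holds both RNAs of a number. RefSeq (GRCm38.p6) accessions, without versions, named 25097 probes. The array was annotated on mm9, so coordinates are given for RefSeq promoters alone. The fit was also run on simulated data with independent noise and few changed features, unlike these data, and no result rests on it.

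The 10 genes and the lists were chosen with earlier results of these data known. Beside the 10 genes, the text names up to 6 further tested genes with the smallest p per list and the 3 genes nearest to the highest and lowest member, apart from results not reported here; Tead3 and the bud markers named were added after their values were seen. The alternatives tried, in background correction, normalisation, filter, choice of probe, dye orientation and replicates, and their effect are in the closing section.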

Additional observations from a re-analysis of the deposited data

Results flagged for a closer look

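Among 70 probes of the named genes, 6 had ratios of one sign on both arrays with AngII in Cy5 and of the other sign on both with AngII in Cy3; this difference between dye orientations was not tested. For Yap1 the mean ratio with AngII in Cy5 was 0.24 log2 units lower than with AngII in Cy3 (difference -0.24, from -0.17 and 0.07). For the Lats2 probe of the other transcript record it was 0.62 higher (0.13 and -0.50), and for Map4k1 also 0.62 higher (0.57 and -0.05). For the dimmest Myof probe the difference was -0.64 (-0.16 and 0.48). Aldh7a1 and Prr11, which were picked for ratios like those of Yap1, had differences of -0.24 and -0.22.

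For Foxf2 1 array stood apart from the other 3, at 0.56 against values from 0.33, with a gap of 0.839 of the whole range of the 4 ratios, just past Dixon's 95% limit. For a Frmd6 probe the gap was 0.954 of a very small range, -0.228 to -0.218. Chance gives such a gap in about 1 of 20 groups, and 2 of the 70 probes had one.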

How the results depend on the processing

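Wwtr1, Lats2, Amotl2, Ccn1 and Ajuba kept their direction under all 12 alternatives, and their side of the threshold under those that gave a test, with ranges of -1.27 to -0.70, -0.53 to -0.35, -0.72 to -0.24, -0.96 to -0.81 and -1.13 to -0.84. Ankrd1 stayed below 0 and did not pass in any that gave a test (-0.13 to -0.01). Lats1 lost its call under 2 and Ccn2 under 3, as given above. Among 35 other named genes 9 calls were lost: with the replicate block those of Fat4, Map4k1, Mark4, Ppp2ca, Ppp2r1a and Strn4, with AngII in Cy5 alone those of Fat4 and Ppp2ca, and in the authors' deposited table that of Src, where not every spot carries a call. Aldh7a1 and Prr11 passed in 5 cases, and Yap1 in 1. With AngII in Cy3 alone the sign turned for Yap1 (0.0688), Aldh7a1 (0.0868), Prr11 (0.0620), Strn4 (0.00449) and Map4k1 (-0.0539). The cause was not tested. The replicate block gave 4641 features past the threshold, against 11588; it uses the 4 arrays with the dye effect in its residual. Leaving out a pair leaves 1 pair of RNAs, so values carry no test: the features lower by at least 1.5-fold were 799 to 820 without either replicate and the higher ones 833 to 834. That count of lower features was 810, and 1971 with processed signals and 1239 with AngII in Cy3 alone; higher features were 824, and 1571 with processed signals. With the replicate block 14.7% of all features were lower and 31.0% passed in either direction. Among the lists, the genes lower there numbered 4 of 16 core kinases, 2 of 11 inhibitors, 9 of 21 partners and 1 of 3 CCN genes. Those higher numbered 0, 0 and 0 of the first 3 lists and 2 of 18 SRF genes. With processed signals 2 core kinases, 0 inhibitors, 0 partners and 3 SRF genes were higher and 1 CCN gene lower. With AngII in Cy3 alone 0 inhibitors were higher and 1 CCN gene lower, with AngII in Cy5 alone 3 core kinases were higher, and 1 inhibitor was higher when probes of a gene were averaged and in the authors' deposited table. Lists without the 10 genes, a choice made after seeing the data, held 5 targets and 0 CCN genes lower. The dim probes of Tead1 and of Lats1 give no usable ratio, and the number of arrays limits the precision.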

Other observations

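Across tested genes outside the 10 that have a promoter entry, GGAATG upstream did not go with lower ratios. The 1185 genes with the motif had a median log2 ratio of 0.04, with 35.8% lower and 45.0% higher under AngII, and the 7945 genes without it had a median of 0.01, with 37.9% lower and 41.5% higher. Of the 11 other targets of the signature with a promoter entry, 3 held the motif (Axl, Crim1 and Ptpn14). Of 18 SRF-linked genes with an entry 7 held a CArG box, Actg1, Vcl and Cnn2 among them.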
